A study of Mus musculus with 22 samples.

Results

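Interferon-stimulated genes are the genes that cells switch on when an interferon reaches its receptor. Here 43 of them were followed across the hippocampus (HIP) and entorhinal cortex (EC) of mice carrying an extra copy of part of mouse chromosome 16. They were taken from the deposited count matrix by gene symbol, 43 rows of 55385, and none lies in the triplicated segment, so none was present in an extra copy itself. They are spread over 17 chromosomes. The groups held 5 wild-type (wt) and 6 Ts66Yah male mice, and each animal gave a HIP and an EC library, 22 libraries in all. By the study's methods the mice were 5 to 6 months old and the wt mice were littermates of the trisomic ones. All shared the F1 B6C3B background. Ts66Yah mice carry a minichromosome with the chromosome 16 segment, and descend from 1 founder in which CRISPR/Cas9 removed the chromosome 17 part of the minichromosome of the older Ts65Dn line, so the line stands on a single recombination event. The question was whether these genes stood at other levels in Ts66Yah brain than in wt brain, and whether they did so in both regions. No member differed past the threshold between genotypes in either region. Most members had a higher mean in Ts66Yah mice, and a single EC library, that of Ts66Yah animal 4, stood above every other EC library for most of the list.

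Type I interferons bind a receptor made of IFNAR1 and IFNAR2 and act through the kinases JAK1 and TYK2, which phosphorylate STAT2 among other factors. STAT2 and IRF9 are parts of a complex called ISGF3, which binds a short DNA element, the interferon-stimulated response element (ISRE), in the promoters of its target genes. Interferon gamma has its own receptor and acts mainly through another element, the gamma-activated site (GAS). The products sense viral RNA, block translation, tag proteins with ISG15 or restrict viruses at membranes, and in the brain they are made by microglia, endothelial cells, astrocytes and neurons.

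The libraries held 25900479 to 50105778 counts (median 34666782), and levels are given as counts-per-million (CPM) after TMM scaling. The libraries were bulk tissue, in which fewer cells of a type and less RNA per cell cannot be told apart. The Ts66Yah EC replicate 4 library stood apart for these genes, so the edgeR results for the EC are given with and without it. The marker sums moved between HIP dissections too. The summed level of 8 choroid plexus markers ran from 116 to 3372 CPM over the HIP libraries, against 11.9 to 44.4 CPM over the EC libraries, and the oligodendrocyte marker sum was 7251 to 10740 CPM in HIP and 1385 to 3469 CPM in EC. The microglia marker sum ran from 457 to 633 CPM in HIP and from 573 to 830 CPM in EC.

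The element through which ISGF3 acts could be looked up for most members. Promoter windows from 250 bases before to 50 bases after the start of transcription, from RefSeq on build GRCm38.p6, were found for 34 of the 43 members. Dhx58, Ifi27, Iigp1, Ly6e, Oas2, Parp14, Parp9, Rtp4 and Usp18 had no window in that table. An ISRE, read here as TTTC and, after any 2 bases, TTTC again on either strand, was present in 20 of the 34 genes (58.8%), against 1079 of 27025 genes (3.99%) over the whole table. The GAS letters, TTC and GAA with any 3 bases between them, also on either strand, were present in 9 of 34 genes (26.5%), against 9.55% of all genes. The stretches below are the ISRE matches of members that stood highest in EC replicate 4, with the ISRE letters of either strand in capitals, and each is written 5′ to 3′ along the gene's own strand. Isg15 lies at chr4:156200860-156200911 on the minus strand with 3 overlapping matches, Ifit1 at chr19:34640770-34640828 on the plus strand, Ifit3 at chr19:34583358-34583431 and Ifit3b at chr19:34607754-34607827 on the plus strand, Bst2 at chr8:71537572-71537617 and Rsad2 at chr12:26456548-26456587 on the minus strand.
Isg15: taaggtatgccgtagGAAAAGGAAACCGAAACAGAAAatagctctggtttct
Ifit1: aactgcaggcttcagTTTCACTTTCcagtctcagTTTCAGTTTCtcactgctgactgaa
Ifit3: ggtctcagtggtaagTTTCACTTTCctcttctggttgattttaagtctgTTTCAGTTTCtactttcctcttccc
Ifit3b: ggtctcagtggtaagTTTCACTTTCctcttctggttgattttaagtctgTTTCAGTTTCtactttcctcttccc
Bst2: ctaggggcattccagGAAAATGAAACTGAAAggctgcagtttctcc
Rsad2: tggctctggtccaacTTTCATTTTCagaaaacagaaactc
The Ifit3 and Ifit3b stretches are identical over all 74 bases, as neighbouring copies of the same gene. A match to these letters is a description of the window and not a measured binding site. Oasl2, Irf7, Ifi44, Herc6, Cmpk2, Lgals3bp, Ifit2 and Irf9 held no ISRE match in this window.

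Per kilobase of exon, the members covered a wide range of resting levels. Ly6e, a surface protein that blocks coronavirus entry, stood at 47.2 CPM per kilobase averaged over the 4 groups. Ifi27 followed at 21.5 and Ifitm3, which restricts virus fusion at endosomes, at 11.8. Below them came Lgals3bp at 6.94, Cmpk2, a mitochondrial nucleotide kinase, at 5.98, and Bst2 (tetherin), which holds budding virus on the cell, at 4.41. The member with the highest level per length of each remaining role was Ifit3 (3.51), the transcription factor Stat2 (3.48), the ubiquitin-like modifier Isg15 (2.48), the GTPase Igtp (1.98), the kinase Eif2ak2 (1.44), the ubiquitin ligase Dtx3l (1.29) and Oasl2 (0.554). The OAS family, whose enzymes make the short oligoadenylates that activate RNase L, held the lowest levels, with Oas1a at 0.201, Oas2 at 0.113, Oasl1 at 0.0997 and Oas3 at 0.0135. Oas3 was too low to be tested for genotype in either region and Oasl1 too low in HIP, so tests covered 41 members in HIP and 42 in EC.

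**Figure D1:**
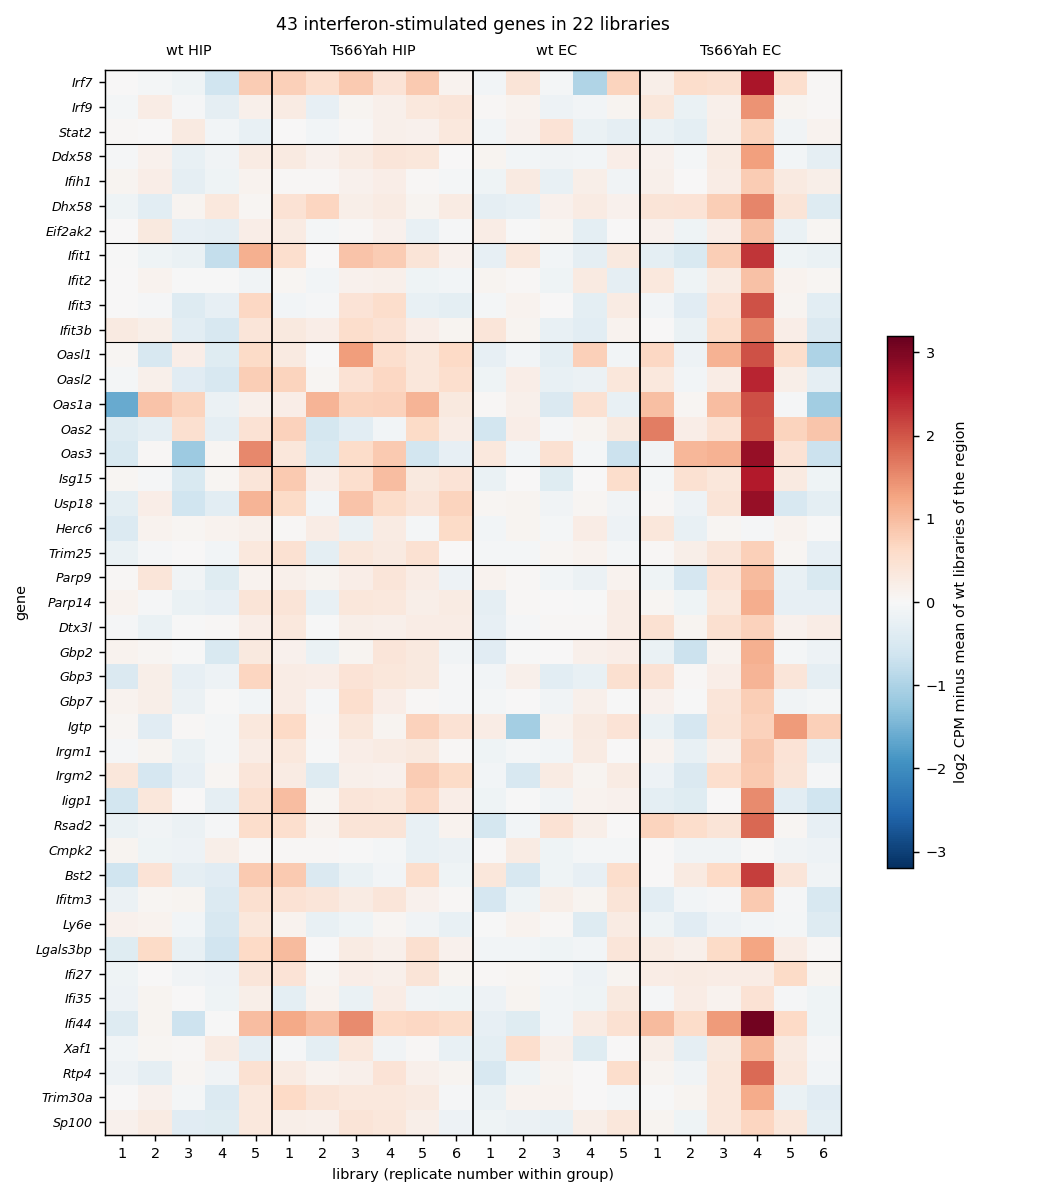
Level of each of the 43 genes (rows, grouped by role) in each of the 22 libraries (columns), as log2 CPM minus the wt mean of the same region. The Ts66Yah EC replicate 4 column is raised over nearly the whole list, the HIP column of the same animal is raised less (mean 0.329 against 1.35), and wt HIP replicate 5 is raised above the other wt HIP libraries.

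In the hippocampus, 37 of 41 tested members had a higher mean in Ts66Yah than in wt mice, but none passed the test. The median log2 fold change over the members was 0.21, where that over all 18452 tested genes was 1.39e-05. By edgeR's quasi-likelihood test, 0 of the 41 had an adjusted p under 0.05 (background 0.591% of all tested genes), and the smallest adjusted p among them was 0.248. At an unadjusted p under 0.05, 7 members were higher (17.1%) and 0 lower, where 5.44% of all genes were higher and 6.42% lower. DESeq2 placed 11 members at an unadjusted p under 0.05 and limma-voom 9, and both called 0. The count was 1 with all 22 libraries in a single fit and 3 with the range of animal numbers in the fit, again with 0 called. It was also 3 without Ts66Yah HIP replicate 1, 3 or 5 or wt HIP replicate 1 or 3, 4 without wt HIP replicate 2, and 13 without Ts66Yah HIP replicate 2. In the fit of every HIP library 17.1% of the members and 11.9% of all genes reached it. The shares of all genes in those other fits are not given here, so their counts are not set against a background. No member had groups that did not overlap in CPM in HIP, where 1% of all tested genes were wholly higher and 0.938% wholly lower in Ts66Yah mice.

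The transcription factors that carry the interferon signal showed the same pattern as the list in HIP. Irf7, which amplifies interferon production, stood at 2.17, 2.03, 1.92, 1.36 and 3.78 CPM in wt HIP replicates 1 to 5, and at 2.30, 3.38 and 3.88 CPM (lowest, median and highest) in the Ts66Yah HIP libraries. Each Ts66Yah library was above 4 of the 5 wt libraries, and wt replicate 5 lay inside the Ts66Yah range. The log2 fold change was 0.54 ± 0.22 (SE, unadjusted p = 0.0309), and its exons overlap those of Phrf1 on the other strand. The median over Irf7, Irf9 and Stat2 was 0.170.

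Among the sensors of viral RNA, Ddx58, which encodes RIG-I, stood at 5.54, 6.22, 4.78, 5.25 and 6.87 CPM in wt HIP and at 5.75, 6.91 and 7.44 in Ts66Yah HIP. Its log2 fold change was 0.24 ± 0.11 (SE, unadjusted p = 0.0441), with overlapping groups. Dhx58, which encodes LGP2, had 0.35 ± 0.17, Ifih1, which encodes MDA5, 0.07 ± 0.11 and Eif2ak2, which encodes the translation-blocking kinase PKR, 0.01 ± 0.13, and none of the 4 sensors was called.

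The ISG15 system attaches the small protein ISG15 to other proteins and removes it again. Isg15 stood at 1.13, 1.05, 0.760, 1.13 and 1.43 CPM in wt HIP and at 1.25, 1.54 and 2.18 CPM in Ts66Yah HIP. Of the wt libraries, 4 lay below the whole Ts66Yah range and replicate 5 lay within it. Its log2 fold change of 0.59 ± 0.20 (SE) had the smallest unadjusted p of the list in HIP, 0.00959, and an adjusted p of 0.248 by edgeR. Usp18, the protease that removes ISG15 and dampens the receptor, stood at 0.619, 0.906, 0.480, 0.604 and 1.71 CPM in wt HIP and at 0.726, 1.21 and 1.51 CPM in Ts66Yah HIP. Its highest value in HIP was again that of wt replicate 5, and the log2 fold change was 0.44 ± 0.30. Herc6, the main ISG15 ligase of the mouse, had 0.16 ± 0.15 and Trim25, an ubiquitin ligase that acts on RIG-I, 0.24 ± 0.15.

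The IFIT proteins, which bind viral RNA ends, did not separate the genotypes in HIP. Ifit1 stood at 1.99, 1.84, 1.76, 1.17 and 4.51 CPM in wt HIP and at 2.05, 2.86 and 3.85 CPM in Ts66Yah HIP, so the highest HIP library was a wt one. The log2 fold changes were 0.37 ± 0.29 for Ifit1, 0.02 ± 0.08 for Ifit2, 0.05 ± 0.21 for Ifit3 and 0.28 ± 0.17 for Ifit3b. Of the 50-base windows of Ifit3 transcripts, 51.2% also occur in another gene, mainly Ifit3b, and the reads were 50 bases long, so the split of reads between the pair is uncertain. In the OAS family the median over the 3 tested members was 0.415, set by Oasl2 (0.42 ± 0.21), with Oas1a at 0.50 ± 0.39 and Oas2 at 0.12 ± 0.30. Oas1a shares 57.6% of its windows with other genes, Oas1g and Oas1b among them, and its level is uncertain for the same reason.

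Igtp, an interferon-inducible GTPase that acts on the vacuoles of intracellular parasites, stood at 3.06, 2.28, 3.0, 2.79 and 3.76 CPM in wt HIP and at 3.04, 3.91 and 4.97 CPM in Ts66Yah HIP. The log2 fold change was 0.41 ± 0.16 (SE, unadjusted p = 0.022), and 11.8% of its windows are shared, mainly with Irgm2. Iigp1, of the same GTPase family, stood at 1.44, 2.84, 2.20, 1.77 and 3.14 CPM in wt HIP and at 2.28, 2.85 and 4.37 CPM in Ts66Yah HIP, with a log2 fold change of 0.42 ± 0.21. All 7 GBP and IRG GTPases had positive estimates in HIP, with a median of 0.212. Dtx3l, the partner of the ADP-ribosyltransferase PARP9, stood at 7.12, 6.27, 7.26, 7.44 and 8.38 CPM in wt HIP and at 7.20, 8.43 and 9.17 CPM in Ts66Yah HIP. Its log2 fold change was 0.20 ± 0.09 (SE, unadjusted p = 0.0407), and its exons overlap those of Parp9 on the opposite strand.

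Ifi27, a mitochondrial protein of the interferon response, stood at 31.4, 35.3, 32.2, 31.2 and 45.4 CPM in wt HIP and at 36.4, 39.7 and 47.3 CPM in Ts66Yah HIP. Again 4 wt libraries lay below every Ts66Yah library and replicate 5 lay near the top, with a log2 fold change of 0.23 ± 0.10 (SE, unadjusted p = 0.042). Ifi44, a cytoplasmic protein induced by interferon, stood at 0.413, 0.612, 0.340, 0.566 and 1.18 CPM in wt HIP and at 0.886, 1.06 and 1.73 CPM in Ts66Yah HIP, a log2 fold change of 0.92 ± 0.31 (SE, unadjusted p = 0.00968, adjusted p = 0.249 by edgeR). The 4 members with a negative estimate were Cmpk2 (-0.07 ± 0.08), Ly6e (-0.10 ± 0.12), Ifi35 (-0.06 ± 0.14) and Xaf1 (-0.04 ± 0.13).

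**Figure D2:**
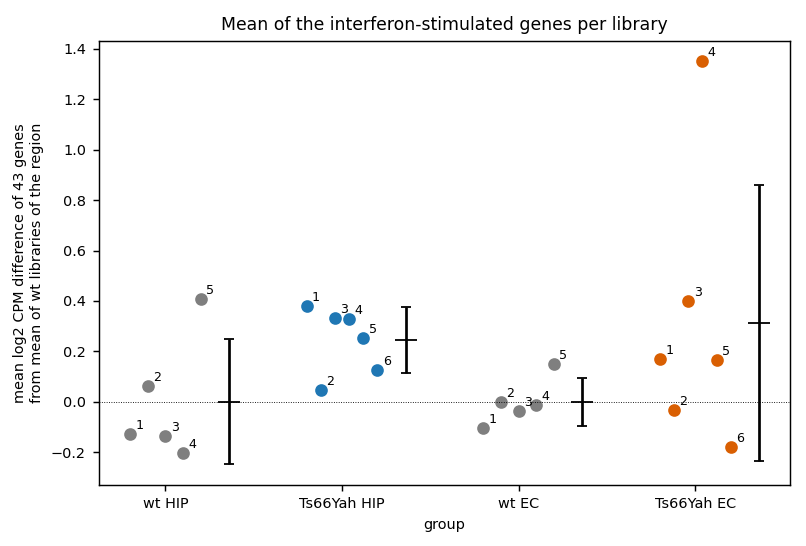
Mean over the members of log2 CPM minus the wt mean of the region (vertical axis), with a point for each library and the group mean ± SD as bars. The Ts66Yah HIP points lie between 0.0487 and 0.381, inside the wt HIP range set by replicate 5 (0.406), and the Ts66Yah EC point of animal 4 lies at 1.35.

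Averaged over the members, the HIP libraries differed by an amount near the spread of the wt group. The wt HIP libraries had a mean log2 difference of 0 ± 0.248 (SD, n = 5) from their own mean, and the Ts66Yah ones lay 0.245 ± 0.131 (SD, n = 6) above it. The wt values were -0.128, 0.0622, -0.137, -0.203 and 0.406 for animals 1 to 5. Wt HIP replicate 5 had the highest value of all 11 HIP libraries for 10 of 41 members (24.4%, against 9.58% of all genes), more than any other library. Wt HIP replicate 4 had the lowest for 15 (36.6%, against 11.4% of all genes). Without replicate 5, 20 of 41 members had an unadjusted p under 0.05 (48.8%, against 10.5% of all genes in that fit), the median log2 fold change was 0.333 and the smallest adjusted p was 0.0684, still with 0 called. As replicate 5 was the wt library highest on these genes, leaving it out raises their estimates in advance. That count therefore cannot be read against the share of all genes. The animal numbers in the labels fall into a higher and a lower range, besides 1 wt animal in neither, and within them the HIP means were 0.101 (wt, n = 2) against 0.273 (Ts66Yah, n = 4) and -0.0374 (n = 2) against 0.191 (n = 2). The median within-group SD of the members in HIP was 0.259 on the log2 scale, where that over all genes, not matched for level, was 0.135.

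The choroid plexus marker sum, which differed widely between HIP dissections, was set beside these genes. The 8-marker sum ran from 116 to 3372 CPM in wt HIP (median 1517) and from 785 to 2906 CPM in Ts66Yah HIP (median 1225). Wt HIP replicate 4, which had the most lowest values, held 116 CPM and wt HIP replicate 5 held 2486 CPM, while wt HIP replicate 2 held the highest sum, 3372 CPM, with a mean over the members of 0.0622. In a fit with the log2 of that sum beside genotype, chosen after seeing the data, 36 of 41 members had a positive slope on the sum, where 50.8% of all genes did, and 15 members had an unadjusted p under 0.05 with a positive slope (4.33% of all genes). By edgeR, 1 member was called, Lgals3bp, a secreted glycoprotein (background 0.607%), with 0.29 ± 0.06 log2 per doubling of the sum and an adjusted p of 0.039. Bst2 had a slope of 0.27 ± 0.09 and Ly6e 0.15 ± 0.03, neither past the threshold. Wt HIP replicate 4 stood at 116 CPM, far below the 785 to 3372 CPM of the other HIP libraries. No such fit was made without it, so how far the slopes rest on that library was not tested. With the sum in the fit, 35 of 41 members had a positive genotype estimate, their median was 0.201, 11 had an unadjusted p under 0.05 and 0 were called. Without the sum, 7 members and 11.9% of all genes had an unadjusted p under 0.05. The share of all genes with the sum in the fit was not counted, so the counts of 11 and 7 cannot be compared.

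**Figure D3:**
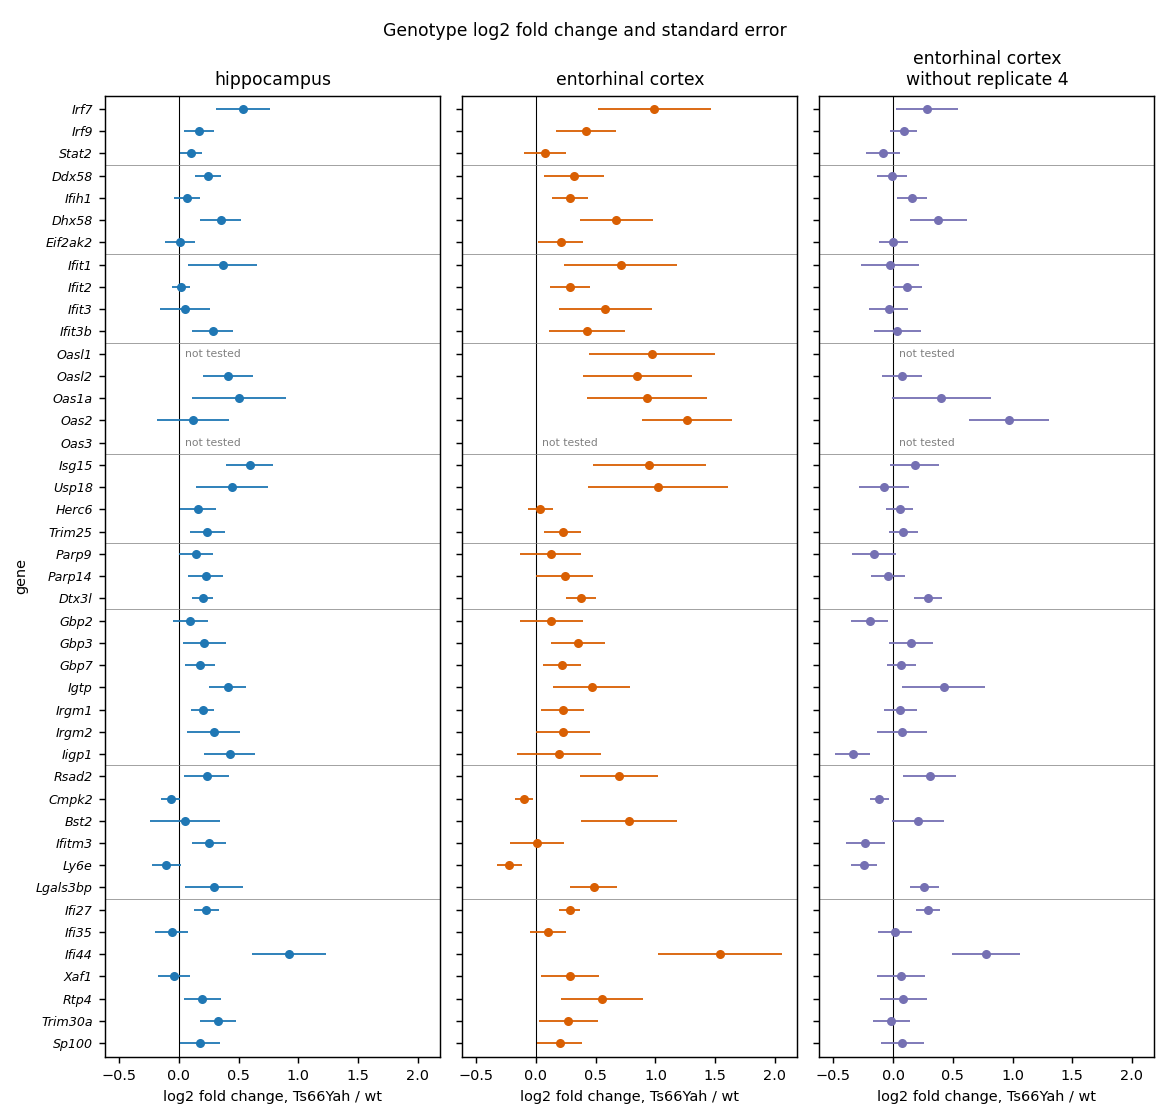
Log2 fold change (Ts66Yah over wt) with its SE for each tested gene, in HIP, in EC and in EC without Ts66Yah replicate 4. Points in HIP lie mostly just above 0, those in EC reach 1.54 at Ifi44, and without replicate 4 most return close to 0.

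In the entorhinal cortex, 40 of 42 tested members had a higher mean in Ts66Yah mice, with a median log2 fold change of 0.302 where that over all 17658 tested genes was -0.00446. By edgeR 0 of the 42 were called (background 0.283%), the smallest adjusted p being 0.446. Unadjusted p values under 0.05 were found for 6 higher members and 1 lower member, where 2.79% and 3.45% of all genes reached it. With replicate 4 included, DESeq2 placed 9 members (22.5%) and voom 5 (11.9%) at an unadjusted p under 0.05, and both called 0. Of all genes in those fits, 3.82% and 6.45% reached it. The edgeR count was 12 with all 22 libraries in a single fit (28.6%, against 8.25% of all genes). It was 4 with the range of animal numbers in the fit (9.52%, against 5.48%). Leaving out wt EC replicate 1 gave 4, and leaving out Ts66Yah EC replicate 6 gave 13. In the fit of every EC library 6.25% of all genes reached it, and the shares without those libraries are not given here. Without replicate 4, 28 of 41 members were positive and 13 negative, the median was 0.076 and again 0 were called (background 0.234%), with 4 members higher and 2 lower at an unadjusted p under 0.05 (2.91% and 3.44% of all genes).

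Only Ifi27 separated the genotypes in EC, with 22.9, 23.5, 21.9, 20.1 and 23.7 CPM in wt and 23.8, 26.5 and 34.3 CPM in Ts66Yah libraries. The groups did not overlap with or without replicate 4, the margin being that between 23.7 and 23.8 CPM, where 0.595% of all genes were wholly higher with it and 0.827% without it. Its log2 fold change was 0.28 ± 0.09 with an adjusted p of 0.514 by edgeR, and 0.29 ± 0.10 with an adjusted p of 0.597 without replicate 4. Dtx3l moved little on leaving that library out. It stood at 5.05, 5.88, 6.17, 6.16 and 7.09 CPM in wt EC and at 6.44, 7.79 and 10.1 CPM in Ts66Yah EC, with a log2 fold change of 0.38 ± 0.13 (unadjusted p = 0.0109) and of 0.30 ± 0.12 (unadjusted p = 0.026) without it.

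Ifi44 had the largest log2 fold change of the list in EC. It stood at 0.658, 0.597, 0.748, 0.966 and 1.15 CPM in wt EC and at 0.718, 1.48 and 7.28 CPM in Ts66Yah EC, a log2 fold change of 1.54 ± 0.52 (unadjusted p = 0.0102, adjusted p = 0.564 by edgeR). Without replicate 4 it was 0.78 ± 0.28 (unadjusted p = 0.0167). Oas2 had the smallest unadjusted p of the list, 0.00499, from low counts of 0.150, 0.299, 0.241, 0.272 and 0.325 CPM in wt EC and 0.300, 0.481 and 1.18 CPM in Ts66Yah EC. Its log2 fold change was 1.26 ± 0.38 with an adjusted p of 0.446, and 0.97 ± 0.33 without replicate 4. Lgals3bp stood at 15.7, 15.6, 15.1, 15.7 and 21.6 CPM in wt EC and at 17.0, 19.8 and 40.1 CPM in Ts66Yah EC, with a log2 fold change of 0.48 ± 0.20 (unadjusted p = 0.0293) that was 0.26 ± 0.12 without replicate 4. Dhx58 stood at 0.598, 0.627, 0.820, 0.906 and 0.827 CPM in wt EC and at 0.547, 1.02 and 2.30 CPM in Ts66Yah EC, 0.67 ± 0.30 with and 0.38 ± 0.24 without that library. These members kept a positive estimate in both fits.

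For other members the estimate rested on replicate 4. Usp18 stood at 0.897, 0.926, 0.796, 0.906 and 0.798 CPM in wt EC and at 0.588, 0.829 and 6.34 CPM in Ts66Yah EC, and its log2 fold change was 1.02 ± 0.58 with replicate 4 and -0.07 ± 0.21 without it. Ifit1 turned from 0.71 ± 0.47 to -0.03 ± 0.24 and Ifit3 from 0.58 ± 0.39 to -0.04 ± 0.16. Irf7 went from 0.99 ± 0.47 to 0.28 ± 0.26, Isg15 from 0.95 ± 0.47 to 0.18 ± 0.21 and Oasl2 from 0.85 ± 0.46 to 0.08 ± 0.17. Iigp1 had a lower mean in the 5 remaining Ts66Yah libraries than in wt, -0.34 ± 0.15 (unadjusted p = 0.0421), where it was 0.19 ± 0.35 with replicate 4. Ly6e had a lower mean in both fits, from 211, 229, 217, 160 and 256 CPM in wt EC and 160, 191 and 203 CPM in Ts66Yah EC, with a log2 fold change of -0.22 ± 0.10 (unadjusted p = 0.0477) and -0.24 ± 0.11 without replicate 4.

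By role, the OAS family had the largest median log2 fold change in EC (0.950 over 4 tested members, and 0.404 over 3 without replicate 4). A member of that family passed the filter on low counts only with replicate 4, so these OAS medians cover different sets of genes. The ISG15 system (0.586 and 0.072) and the IFIT family (0.506 and 0.0046) followed. The transcription factors had 0.419 and 0.088, the RNA sensors 0.301 and 0.080, and the GBP and IRG GTPases 0.225 and 0.070. The membrane, secreted and nucleotide effectors had 0.244 and 0.047, and the other interferon-stimulated genes 0.282 and 0.079. The median of the PARP9 complex turned negative, from 0.242 to -0.043. The median of each of these roles was lower without replicate 4. The median within-group SD of the members in EC was 0.426 on the log2 scale with replicate 4 and 0.259 without it, where all genes had 0.170 in both.

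**Figure D4:**
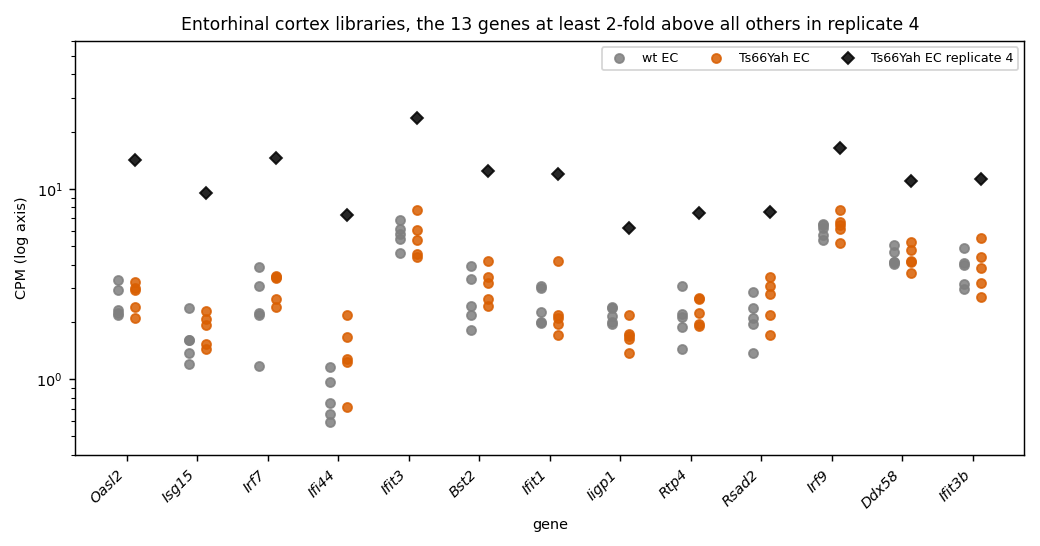
CPM (log axis) of 13 members in each EC library, with wt and Ts66Yah libraries marked. Each averaged 1 CPM or more in the other EC libraries and stood at least 2-fold above all of them in Ts66Yah EC replicate 4, for example Irf7 at 14.6 against at most 3.90 and Isg15 at 9.56 against at most 2.36.

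In the EC library of Ts66Yah animal 4, nearly the whole interferon-stimulated list stood high. It had the highest value of the 11 EC libraries for 37 of 42 tested members (88.1%), where it was the highest for 11.0% of all genes. Of the 14724 genes that averaged 1 CPM or more in the other EC libraries, 15 stood at least 2-fold above the highest of the other 10 EC libraries, and 13 of these were members. The remaining pair was Rnf213, itself an interferon-induced ubiquitin ligase that was not on the list (33.6 CPM against at most 11.1), and Gm42664, a sense intronic transcript (5.84 against at most 2.72). Below that level, Usp18 (6.34 against at most 1.17), Oas1a (1.39 against 0.626), Oasl1 (0.969 against 0.483) and Oas3 (0.576 against 0.142) also stood 2-fold above the other EC libraries. For genes below that level the same count over all genes was not made, and few reads limit the OAS values. No other library of the 22 had a member, at any level, at least 2-fold above the highest of the rest of its region.

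The 13 held transcription factors, an RNA sensor and effectors, and none of the PARP9 complex. Of the factors, Irf7 stood at 14.6 CPM against at most 3.90 in the other EC libraries, and Irf9, the DNA-binding part of ISGF3, at 16.4 against 7.77. Of the effectors, Oasl2 stood at 14.2 CPM against at most 3.31, Isg15 at 9.56 against 2.36, Ifit3 at 23.6 against 7.76, Ifit1 at 12.0 against 4.18 and Bst2 at 12.4 against 4.15. Ifi44 (7.28 against 2.16), Iigp1 (6.23 against 2.39), Rtp4 (7.43 against 3.07), Rsad2, which encodes viperin (7.51 against 3.45), the RNA sensor Ddx58 (11.0 against 5.23) and Ifit3b (11.2 against 5.55) completed the 13.

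Measured against the median of the other 10 EC libraries, the excess of replicate 4 was 2.72 on the log2 scale for Ifi44, 2.53 for Isg15, 2.46 for Ifit1, 2.39 for Oasl2, 2.32 for Irf7 and 2.06 for Ifit3. Among the 37 members at that level, 36 were above the median, 18 by at least 2-fold, and the median excess was 0.990, where that over all genes was -0.0014 and 0.679% of genes reached 2-fold. A few members did not take part. Herc6 had an excess of -0.07, Ly6e of 0.00, Cmpk2 of 0.08 and Ifi27 of 0.16, and Igtp at 6.07 CPM was below the highest other library at 9.27. The 20 members with an ISRE match in the promoter window had a median excess of 1.17 (0.489 to 2.66) and the 14 without one 0.917 (-0.0747 to 2.72), ranges that overlap over most of their length.

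The cell type marker sums of that library were set beside these values. Its microglia sum was 637 CPM, inside the EC range, and its choroid plexus sum was 13.5 CPM. Its leukocyte sum of 5.24 CPM was the lowest of the 11 EC libraries (5.24 to 15.4). Its meningeal sum of 185 CPM lay near the top of the EC range (92.6 to 195), and the HIP library of the same animal had the highest meningeal sum of the HIP libraries, 173 CPM. The region markers moved too, with the lowest sum of 7 cortex markers of the EC libraries (488 CPM, range to 720) and the highest sum of 8 hippocampal markers (110 CPM, range from 70.5), which in HIP stood at 774 to 950 CPM. The part of these differences in the result was not tested. Its depth was 38422559 counts.

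The HIP library of the same animal did not share a step of that size. Its mean over the members was 0.329 log2 above the wt HIP mean, against 1.35 in EC, and it had the highest HIP value for 6 of 41 members. Ts66Yah animals 1, 3 and 5, with means of 0.381, 0.332 and 0.254, lay near animal 4 in HIP. In EC the remaining Ts66Yah animals had 0.170, -0.0314, 0.400, 0.168 and -0.180. The group mean was 0.313 ± 0.546 (SD, n = 6) with animal 4 and 0.105 ± 0.221 (SD, n = 5) without it, and 0 ± 0.0939 (SD, n = 5) in wt EC. Within the higher range of animal numbers the EC means were 0.0704 (wt, n = 2) against 0.473 (Ts66Yah, n = 4, and 0.18 without animal 4, n = 3), and within the lower range -0.0185 (n = 2) against -0.00617 (n = 2). Whether the genotype difference of a member differed between regions was tested over all 22 libraries. The edgeR and DESeq2 fits for this treated the HIP and EC libraries of an animal as independent. Of 42 members, 0 were called by edgeR (background 0% of 19074 genes), and 1 had an unadjusted p under 0.05 (2.03% of all genes), Oas2, with a difference of log2 fold changes of 1.14 ± 0.49 (EC minus HIP, unadjusted p = 0.0296). DESeq2, and voom with a correlation between the libraries of an animal, each placed 1 member there too and called 0. Without EC replicate 4, 0 were called and 2 had an unadjusted p under 0.05, Ifitm3 and Iigp1, both with a negative difference.

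Some members had a region of their own, which appeared in both genotypes. In wt mice 11 of 41 tested members were called between regions, 7 higher and 4 lower in EC (background 47.7% called, 23.4% higher and 24.3% lower), and with the animal as a block 13. Leaving out wt animal 1 gave 6 calls, animal 2, 3 or 4 gave 7, and animal 5 gave 10. In these fits 40% to 44.5% of all genes were called, and 53.3% with the block. In Ts66Yah mice 8 of 42 were called, 6 higher and 2 lower (background 54%, with 26.4% higher and 27.5% lower), and with the animal as a block 12, of which 10 were higher and 2 lower (59% of all genes called, 28.9% higher and 30.1% lower). As shares of the tested members these were 26.8% in wt and 19.0% in Ts66Yah mice, and their difference from the background was not tested.

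Herc6 had the largest regional difference. It stood at 3.06, 4.48, 4.30, 4.49 and 4.63 CPM in wt HIP and at 12.6, 14.3, 12.9, 15.7 and 11.9 CPM in wt EC, with no overlap. The log2 fold change of EC over HIP was 1.70 ± 0.13 (adjusted p = 3.22e-07 by edgeR) in wt and 1.57 ± 0.13 (adjusted p = 1.66e-07) in Ts66Yah mice. Its exons share 12.5% of their windows with another locus, mainly Gm45193. Ifih1 stood at 4.33, 4.75, 3.34, 3.74 and 4.43 CPM in wt HIP and at 5.05, 6.90, 4.78, 6.43 and 5.14 CPM in wt EC, all EC libraries above all HIP ones, the margin being that between 4.75 and 4.78 CPM. Its log2 fold change was 0.48 ± 0.14 (adjusted p = 0.0153) in wt and 0.69 ± 0.12 (adjusted p = 0.000275) in Ts66Yah mice. The share of all genes without overlap between regions was not counted, so the lack of overlap of Herc6 and Ifih1 has no background. Ifit2, Cmpk2 and Ly6e were also called higher in EC in both genotypes, with 0.34 ± 0.11, 0.34 ± 0.10 and 0.41 ± 0.15 in wt and 0.61 ± 0.14, 0.30 ± 0.06 and 0.28 ± 0.08 in Ts66Yah mice. Their Ts66Yah calls held without any 1 animal, but the wt call of Ly6e was lost without animal 1, 2 or 3, that of Ifit2 without 1 or 4, and that of Cmpk2 without 2. The wt call of Ifih1 was lost without animal 4.

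Xaf1, an apoptosis-promoting factor, ran the other way. It stood at 3.82, 4.24, 4.14, 4.83 and 3.31 CPM in wt HIP and at 1.41, 2.60, 1.98, 1.33 and 1.77 CPM in wt EC, a log2 fold change of -1.14 ± 0.18 (adjusted p = 0.000219) in wt and -0.82 ± 0.20 (adjusted p = 0.00284) in Ts66Yah mice. Ifi27 was lower in EC by -0.63 ± 0.10 (adjusted p = 0.000236) in wt and -0.58 ± 0.09 (adjusted p = 7.68e-05) in Ts66Yah mice. Oas2 (-1.07 ± 0.30, adjusted p = 0.00975) and Ddx58 (-0.36 ± 0.12, adjusted p = 0.0298) were called lower in EC in wt mice, and Isg15 (0.59 ± 0.22, adjusted p = 0.042) and Ifit3b (0.54 ± 0.20, adjusted p = 0.0426) higher. None of these 4 was called by edgeR in the 6 Ts66Yah animals with the filter on low counts and no block. Ifit3b was called there with the animal as a block (adjusted p = 0.033), by DESeq2 (0.0317), with no filter on low counts (0.0433) and without animal 6 (0.0441), and Ddx58 without animal 4 (0.00092). The Isg15 call was lost on leaving out any 1 of the 5 wt animals, and those of Ddx58 and Ifit3b held in 1 of the 5 such fits each. Rsad2 was called higher in Ts66Yah EC (0.83 ± 0.30, adjusted p = 0.028), a call lost without animal 2 or animal 4. Without animal 4, 13 of the members were called in Ts66Yah mice, 5 higher and 8 lower in EC (51.9% of all genes called, 25.2% higher and 26.6% lower), with Ddx58, Iigp1, Oasl2, Irf9, Stat2 and Parp9 joining Xaf1 and Ifi27 on the lower side.

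**Figure D5:**
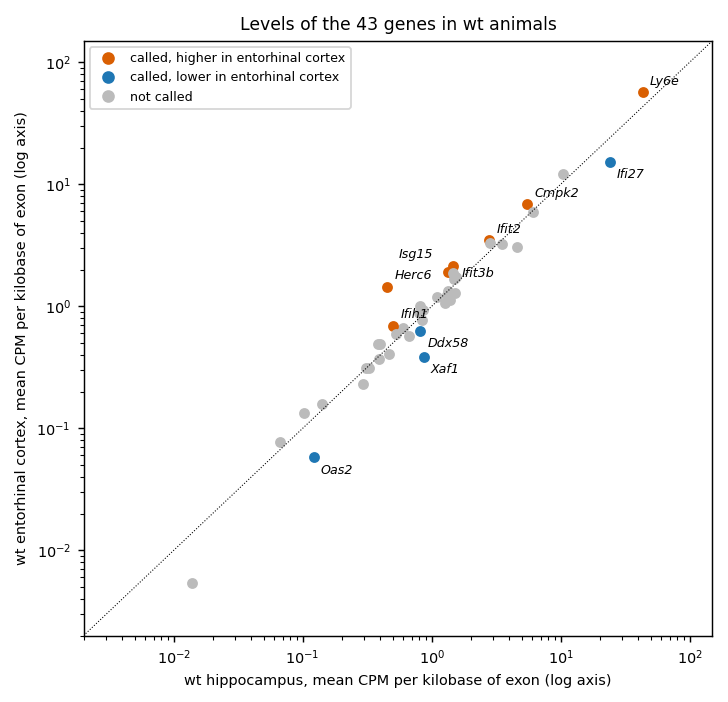
Mean CPM per kilobase of exon in wt HIP (horizontal, log axis) and wt EC (vertical, log axis) for each gene, with genes called between regions in colour. Herc6 lies far above the diagonal and Xaf1 below it, and most genes lie close to it.

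The signal upstream of these genes was looked up in the same fits. Of 21 interferon genes listed, 13 had no read in any library, the highest count in a library was 2, and 17 reads were counted in all, 1 of them in EC replicate 4. The receptor genes Ifnar1, Ifnar2 and Ifngr2 lie in the triplicated segment and rose in Ts66Yah mice in both regions. Ifnar1 stood between 39.8 and 45.3 CPM in wt HIP and between 64.3 and 71.5 CPM in Ts66Yah HIP, a log2 fold change of 0.68 ± 0.05 (adjusted p = 1.22e-05 by edgeR), and had 0.68 ± 0.06 (adjusted p = 9.08e-05) in EC, 0.67 ± 0.06 (adjusted p = 0.00029) without replicate 4. Ifnar2 had 0.59 ± 0.10 in HIP (adjusted p = 0.0107) and 0.60 ± 0.08 in EC (adjusted p = 0.00378, and 0.0106 without replicate 4). The interferon gamma receptor chain Ifngr2 had 0.67 ± 0.05 (adjusted p = 1.22e-05) and 0.72 ± 0.08 (adjusted p = 0.00077, and 0.00227 without replicate 4). Il10rb, the receptor chain shared by interleukin 10 and the lambda interferons, lies there too and was called in HIP (0.65 ± 0.07, adjusted p = 0.00026) but not in EC (0.50 ± 0.13, adjusted p = 0.248, and 0.47 ± 0.13 without replicate 4).

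The rest of the pathway was counted in the same way. Of 32 pathway genes outside the segment tested in HIP 0 were called, 2 were higher (Jak1 and Tmem173, which encodes STING) and 1 lower (Rnaseh2c) at an unadjusted p under 0.05, where 5.44% and 6.42% of all genes were, and the median log2 fold change was 0.031. Of 30 tested in EC 0 were called and 15 were positive, and without replicate 4 again 0 and 14. Of 37 further interferon-stimulated genes outside the segment and off the list, 25 were positive (67.6%, where 50% of all genes were) and 5 higher at an unadjusted p under 0.05 in HIP, with a median of 0.094. In EC 25 of 33 were positive with replicate 4 and 13 of 31 without it, where 48.5% and 48.9% of all genes were.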

How the data were processed

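RNA-seq counts of 22 mouse brain libraries were analysed. The deposited counts are whole reads per Ensembl gene, made by the authors with Hisat2 alignment to GRCm38 and HTSeq-count per their methods. The submitters' processing notes name bcl2fastq 2.17.1.14 and DESeq2, and the strand setting of the counting is not given in the sources used here. The labels describe a poly(A) mRNA kit and the methods a ribosomal RNA depletion kit. Tables of the authors' own comparisons, with fold changes and p-values from DESeq2 and FCROS, were not used. Of 55385 row identifiers, 55144 were matched to GENCODE M21 names.

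Counts were fitted per comparison over all genes with edgeR 4.0.16 (R 4.3.3; TMM, filterByExpr, quasi-likelihood test), with Benjamini-Hochberg adjustment and a threshold of 0.05, and DESeq2 1.42.0 and limma 3.58.1 (voom) as alternatives. CPM used TMM factors over all 22 libraries, log2 CPM a prior count of 2, and levels per length the GENCODE exon length. A set of 50-base windows of each transcript was searched in the transcripts of other genes. The scripts were tested on simulated data. Depth was 25900479 to 50105778 counts per library. Intervals are SEs of the fit or SDs between mice. Within a region each library is a separate animal, so the p-values of the genotype fits per region measure the spread between animals. The fits between regions without the animal block treated the HIP and EC libraries of a mouse as independent. So did the edgeR and DESeq2 fits over all 22 libraries.

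The members, roles and further lists were chosen with earlier results of these data known. Members named with full values were, per region, the 6 with the smallest unadjusted p and the 4 with the largest fold change at a mean of at least 1 CPM, the 6 with the largest excess of EC replicate 4, the 4 called members with the largest regional change per direction, and the highest per length of each role. Others were named after their values were seen. The values of 1 pathway gene are not reported here. HIP and EC libraries of an animal are paired by the animal number in the labels. Their deviations from the group means correlated at 0.206 to 0.454 in wt and 0.262 to 0.41 in Ts66Yah mice.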

Additional observations from a re-analysis of the deposited data

Results flagged for a closer look

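Of 100 groups of values, 96 of 24 named genes and 4 of the mean over the members, 21 held a library whose gap to its nearest neighbour took more of the group's range than Dixon's 95% limit allows, where chance gives about 1 in 20. Of these, 16 were the Ts66Yah EC replicate 4 library, for whose excess 6 of the 24 genes had been named, so this count cannot be read against chance. It was high for Isg15 (9.56 CPM), Irf7 (14.6), Ddx58 (11.0), Usp18 (6.34), Iigp1 (6.23), Ifi44 (7.28), Lgals3bp (40.1), Ifit1 (12.0), Oasl2 (14.2), Ifit3 (23.6), Ifit3b (11.2), Ifih1 (9.87), Xaf1 (3.74), Rsad2 (7.51), Ifit2 (26.0) and Eif2ak2 (12.5 CPM). Ts66Yah EC replicate 5 was high for Ifi27 at 34.3 CPM. In wt mice, HIP replicate 5 was high for Ifit1 (4.51 CPM) and Rsad2 (2.44 CPM), HIP replicate 1 low for Herc6 (3.06 CPM) and EC replicate 5 high for Lgals3bp (21.6 CPM).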

How the results depend on the processing

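No member was called between genotypes in HIP or EC under any alternative, which were RLE factors, 2 other filters, DESeq2, voom, all 22 libraries in 1 fit, the replicate block, a block for the animal number ranges, the choroid sum (HIP, added after seeing the data) and leaving out each library. Of 515 results for named genes under an alternative, 493 kept direction and side of the threshold, 19 lost it and 3 reversed. Those 3 were without Ts66Yah EC replicate 4, at -0.0749 for Usp18, -0.028 for Ifit1 and -0.0371 for Ifit3 (log2). The other EC fits without a library reached up to 1.2, 0.862 and 0.713. Each gene was counted only in the comparisons it was named for, and no genotype result had a call to lose. Over all tested members, 2 of 42 EC estimates were negative with replicate 4 and 13 of 41 without it. Iigp1, named for HIP only, was among those that turned negative. Leaving out a library, the EC median lay between 0.076 (without Ts66Yah EC replicate 4) and 0.387, the difference of EC group means between 0.105 (without replicate 4) and 0.412 (without replicate 6), the HIP median between 0.176 and 0.333, and the HIP difference of means between 0.194 and 0.347. Calls between regions ran from 6 to 10 in wt and, without animal 4, reached 13 from a low of 7 in Ts66Yah mice. Replicate numbers of wt and Ts66Yah mice do not pair animals (correlations of deviations 0.0169 to 0.177 in EC and -0.00703 to 0.0584 in HIP). With the replicate block edgeR called 0 members in HIP, where 8 had an unadjusted p under 0.05 and the smallest adjusted p was 0.218. The share of all genes in that HIP fit is not given here. In EC it called 0, and 11 had an unadjusted p under 0.05 (26.2%, against 5.77% of all genes), with a smallest adjusted p of 0.418. Apart from Oasl2, the OAS genes averaged under 1 CPM, where few reads limit the precision. Shared sequence limits Ifit3, Ifit3b and Oas1a.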

Other observations

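Some genes off the list stood with it in the EC library of Ts66Yah animal 4. Zbp1, a sensor of Z-form nucleic acid, stood at 1.34 CPM there and at no more than 0.295 CPM in any other EC library, and 51 of its 220 reads over all libraries came from it. The Mx genes, which lie in the triplicated segment and encode antiviral GTPases, stood at 2.28 CPM (Mx1) and 3.80 CPM (Mx2) in that library, against at most 0.427 and 1.14 CPM in the other EC libraries.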
